A study of Mus musculus with 173 samples.

Results

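The 4 transcript rows described here were read out on arrays in the kidneys of F2 mice. They are ENSMUST00000019063 and ENSMUST00000019068, and beside them ENSMUST00000107284 and ENSMUST00000092648, which carry nearly the same values as each other. They were chosen by identifier, because earlier results of these data had shown that each of them splits the animals into expression classes, and they are 4 of the 37264 transcripts measured. Kidney RNA came from 173 male F2 mice, whose grandmothers were of the inbred strain MRL/MpJ and whose grandfathers were of the inbred strain SM/J. The males were 13 weeks old, were housed alone for 3 days and fasted during 4 hours before collection, all under the same conditions and on a chow diet. The whole cross comprised 371 F2 animals, and by its title the study was about urinary albumin excretion. The 173 kidneys formed 1 group, with 1 array per animal. Genotypes and albumin values were not used here. No table used here pairs these identifiers with gene symbols or positions, so neither gene names nor roles are given, and the labelled tissue could not be checked against kidney markers.

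In an F2 cross, each animal carries at an autosomal locus no, 1 or 2 copies of the allele of a given parental strain. If such a locus sets the level of a transcript strongly enough, the animals fall into 3 classes of expression in the ratio 1:2:1. The heterozygous middle class lies halfway between the outer classes in amount of transcript where the alleles add up. It lies at an outer class where one allele is dominant. Transcripts governed by the same locus, or by loci close together on a chromosome, sort the same animals together, and recombination between loci loosens that sorting. This is textbook background. Which genotype the animals of a class carry was not examined.

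All values are on the log2 scale of the deposited arrays. The median of all transcript means was 7.25, and the values of all 4 transcripts lay above it on average. Array means ran from 7.48 to 7.60. Each kidney was measured once, so differences between animals hold the array error too, and the number of arrays limits the precision.

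ENSMUST00000019063 ran from 6.58 at the lowest over a median of 8.85 to 9.99 at the highest animal. Its values fell into 3 separate bodies. The lowest 35 animals ended at 7.24 and the next began at 8.50, and a second empty stretch from 9.19 to 9.37 set the highest 40 animals apart from the 98 between. ENSMUST00000019068 had the wider range, from 6.20 over a median of 10.08 to 11.42. Again 35 animals stood apart at the low end, up to 6.93, and no animal lay between that value and 8.79. The other 138 animals of this transcript formed one broad body, whose next widest step, from 9.12 to 9.37, cut off only its lowest 5 animals.

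ENSMUST00000107284 ran from 7.88 over a median of 8.89 to 9.56, a narrower range than that of ENSMUST00000019063 or ENSMUST00000019068. It too had 3 bodies, of 41, 88 and 44 animals from low to high, with empty stretches from 8.31 to 8.68 and from 9.03 to 9.18. ENSMUST00000092648 ran from 7.89 over a median of 8.95 to 9.67 and had bodies of the same sizes, with empty stretches from 8.32 to 8.68 and from 9.15 to 9.30. By SD over animals, ENSMUST00000019068 (1.51) ranked 4 and ENSMUST00000019063 (0.95) ranked 16 among the 17110 distinct transcripts above the median level. ENSMUST00000107284 (0.46) and ENSMUST00000092648 (0.49) ranked 110 and 92, and the median SD of all 17110 was 0.11.

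**Figure D1:**
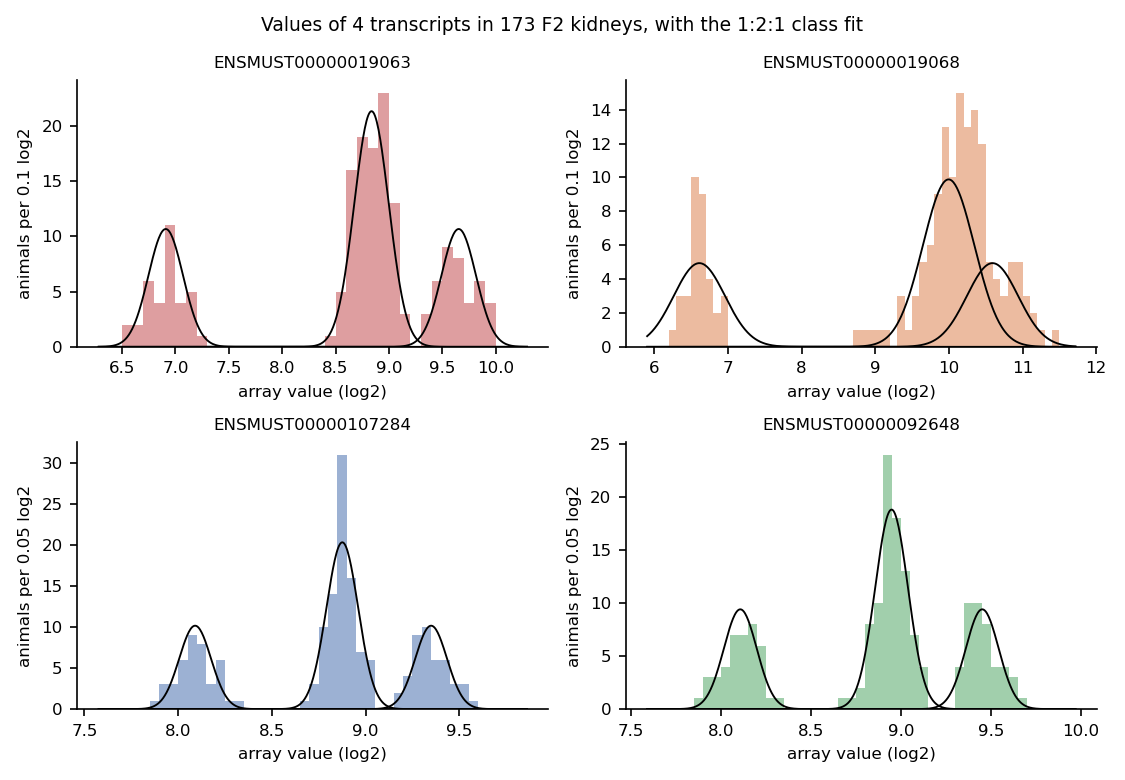
Number of animals (y axis) by array value (x axis, log2) for each of the 4 transcripts in 173 kidneys. Black curves are the fitted classes with shares fixed at 1:2:1. ENSMUST00000019068 has a low class and 1 broad body above it, while 3 bodies are seen in each of the others.

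To each transcript, 3 Gaussian classes with a common SD and shares of 1:2:1 were fitted by maximum likelihood. A transcript counted as discrete when the better of the 1:2:1 and 1:1 class models led the best continuous model (Gaussian, skew-normal or Student t) by over 10 in the Bayesian information criterion (BIC). All 4 transcripts were discrete by this rule, against 1.23% of the 17110 transcripts. They were chosen for their classes, so nothing is read from that count. Their leads over continuous models were 218 for ENSMUST00000019063 and 173 for ENSMUST00000019068, against 198 for ENSMUST00000107284 and 190.4 for ENSMUST00000092648, and they ranked 7, 16, 10 and 11 among the 17110. With the first 5 principal components of all transcripts removed, the leads were 16.0 and 39.6, against 27.2 and 26.9.

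For ENSMUST00000019063 the fitted classes stood at 6.91 ± 0.03, 8.84 ± 0.02 and 9.65 ± 0.03 (SE, n = 173), and the SD inside classes was 0.16. The step from the low to the middle class was 1.93, a 3.80-fold difference, and the step from the middle to the high class was 0.82, or 1.76-fold. In ENSMUST00000019068 the classes stood at 6.61 ± 0.06, 10.00 ± 0.05 and 10.59 ± 0.08, and the SD inside classes was 0.35. The lower step was 3.39, a 10.4-fold difference, and the upper step 0.60, or 1.51-fold. Both transcripts thus had a large lower step and a small upper one. The low classes of both stood lower than the median of transcript means, with 41.9% and 34.1% of all transcripts below them. Array background was not measured here, so the 6.70-fold and 15.8-fold differences between their outer classes are ratios of array signal, which may differ from those of transcript amounts.

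The classes of ENSMUST00000107284 stood at 8.09 ± 0.01, 8.88 ± 0.01 and 9.35 ± 0.01 (within-class SD 0.08), and those of ENSMUST00000092648 at 8.11 ± 0.01, 8.95 ± 0.01 and 9.45 ± 0.01 (within-class SD 0.09). Their outer classes differed 2.39-fold and 2.54-fold, and their low classes lay above the median level of all transcripts. Measured in within-class SDs, the outer classes were 17.0 SDs apart in ENSMUST00000019063 and 11.4 in ENSMUST00000019068, against 14.8 in ENSMUST00000107284 and 14.7 in ENSMUST00000092648. The median over the 206 transcripts called with 3 classes in the ratio 1:2:1 (1.2% of the 17110) was 7.44. The upper step alone was 5.05 SDs in ENSMUST00000019063, but 1.71 SDs in ENSMUST00000019068, where the middle and high classes overlapped. It was 5.59 SDs in ENSMUST00000107284 and 5.50 SDs in ENSMUST00000092648.

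When shares were fitted as well, the classes of ENSMUST00000019063 from low to high held 20.2 ± 3.05%, 56.7 ± 3.78% and 23.1 ± 3.22% of animals (SE, n = 173). The classes of ENSMUST00000107284 held 23.7 ± 3.23%, 50.9 ± 3.80% and 25.4 ± 3.31%, and those of ENSMUST00000092648 were the same to the digits given. In these 3 transcripts the 95% interval of each share (normal approximation) held its value under 1:2:1. For ENSMUST00000019068 the low class held 20.2 ± 3.05%, as in ENSMUST00000019063, but the free fit split the body above it into a middle class of 5.63% at 9.28 and a high class of 74.1% at 10.26. The data barely determined that split. With the low share held, 95% profile likelihood intervals ran from 1.99 to 49.9% for the middle and from 29.9 to 77.8% for the high class, and by BIC the 1:2:1 model led the one with free shares by 4.23. The likelihood was nearly flat past 49.9% and 29.9%, where its logarithm lay 1.92 below the best. It lay 1.99 below at a middle share of 57.8% and a high share of 21.9%, so these ends are loose. The split also moved with the settings. The middle class held 57.9% and the high class 21.8% after arrays were quantile-normalized again. They held 60.5% and 18.6% without the 5 arrays that correlated least with the median array. The low share was therefore fixed by the data of ENSMUST00000019068 alone and the upper shares were not.

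**Figure D2:**
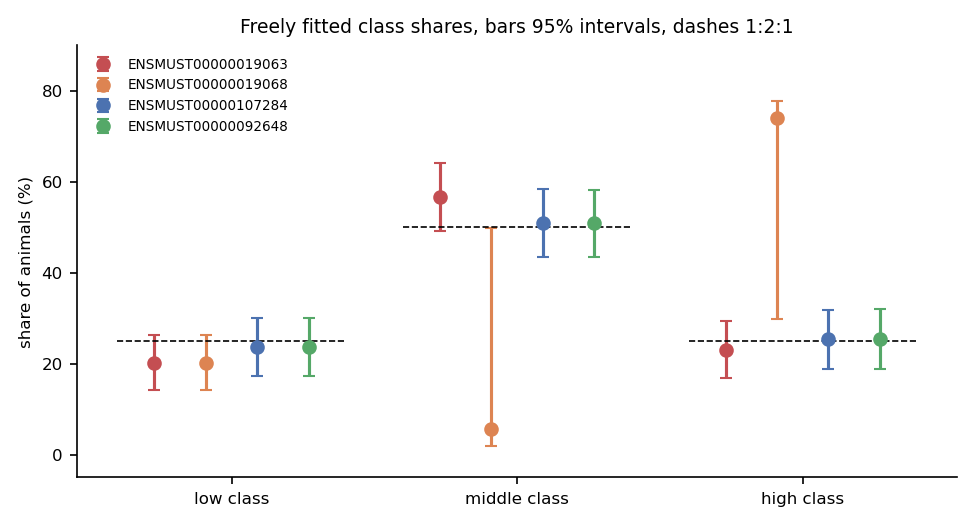
Share of animals in each class (y axis, %) when the shares were fitted freely, for the 4 transcripts, with bars of 95% intervals and dashes at 25, 50 and 25%. Bars are normal approximations, except for profile likelihood intervals in the middle and high class of ENSMUST00000019068, which are far wider (1.99 to 49.9% and 29.9 to 77.8%) than those of the other 3 transcripts. The likelihood was nearly flat past 49.9% and 29.9%, so these ends are loose.

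The models were also compared on whether the animals above the low class of ENSMUST00000019068 need splitting at all. Complete dominance would leave 2 classes in the ratio 1:3. With a common SD, the 1:2:1 model led 2 such classes by a BIC of only 2.46 for ENSMUST00000019068 and of 115 for ENSMUST00000019063, against 145 for ENSMUST00000107284 and 141 for ENSMUST00000092648. Likewise, the 1:2:1 model led 2 classes with free shares by a BIC of 5.42 for ENSMUST00000019068 and of 118 for ENSMUST00000019063, against 150.2 for ENSMUST00000107284 and 146 for ENSMUST00000092648. When each of 2 classes had an SD of its own, that model led the 1:2:1 model by 29.9 for ENSMUST00000019068. Its low class then held 20.2% at 6.61 with an SD of 0.16 and its upper class 79.8% at 10.19 with an SD of 0.47. For ENSMUST00000019063, in contrast, the 1:2:1 model led by 93.0, for ENSMUST00000107284 by 119.5 and for ENSMUST00000092648 by 114. These comparisons free the SDs along with the number of classes. For ENSMUST00000019068, 3 classes with free shares and an SD each had a BIC of 368.0 (lower is better). It was 358.6 for the 2 classes with an SD each and 388.5 for 1:2:1 with a common SD. A 1:2:1 model with class SDs was not fitted. Among the models fitted, a tight low class and a wide upper body had the lowest BIC for ENSMUST00000019068. The 1:2:1 model with a common SD had it for each of the others.

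The place of the middle class was expressed as a position, which is -1 at the low class, 0 halfway on the log2 scale and 1 at the high class. It lay at 0.405 ± 0.019 in ENSMUST00000019063 and at 0.701 ± 0.042 in ENSMUST00000019068, against 0.247 ± 0.021 in ENSMUST00000107284 and 0.251 ± 0.021 in ENSMUST00000092648 (SE, n = 173). The median over the 206 transcripts was 0.186. In order of position ENSMUST00000019068 was number 2 of the 206, ENSMUST00000019063 number 21, ENSMUST00000092648 number 53 and ENSMUST00000107284 number 56. The log2 scale stretches the lower step, so the same classes were also read on the linear scale. There the middle class of ENSMUST00000019063 had covered 49.2 ± 1.29% of the way from the low to the high class, close to the halfway point. The corresponding values were 51.9 ± 1.15% for ENSMUST00000107284 and 51.4 ± 1.17% for ENSMUST00000092648, and the median over the 206 transcripts was 51.8%. For ENSMUST00000019068 it was 63.9 ± 4.42%, and its middle class lay 0.32 ± 0.09 log2 units above the linear midpoint.

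In array signal, "additive" describes ENSMUST00000107284 and ENSMUST00000092648, and also ENSMUST00000019063 with the limit that its low class stood below the median level. Whether the amounts of transcript add up was not tested. "Dominant-like" describes ENSMUST00000019068 only in part: its middle class lay above halfway but short of the high class in the 1:2:1 fit. It was at 96.5% of the way when each of 3 freely shared classes had its own SD. The upper classes of that fit nearly shared a centre, at 10.16 (SD 0.21) and 10.21 (SD 0.55). The 96.5% therefore does not place a middle class between separate outer ones. With shares left free and a common SD the middle class was at 46.2% of the way. Its position on the log2 scale was 0.973 with class SDs and lay between 0.461 and 0.703 over the other settings tried.

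**Figure D3:**
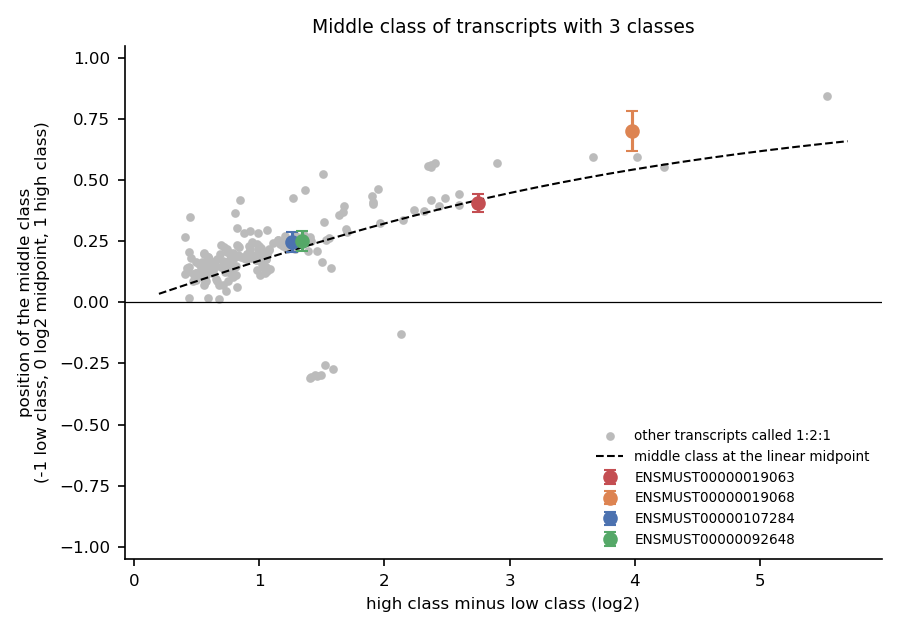
Position of the middle class (y axis) against the difference between the outer classes (x axis, log2) for the 4 transcripts, with bars of 95% intervals, and for the other transcripts called 1:2:1 (grey). The dashed line marks a middle class at the linear midpoint: ENSMUST00000019063, ENSMUST00000107284 and ENSMUST00000092648 lie on it and ENSMUST00000019068 (0.701) lies above it. Positions and bars hold for shares of 1:2:1 and a common SD. With free shares ENSMUST00000019068 was at 0.461 ± 0.135 (SE), or 46.2 ± 9.22% of the way on the linear scale.

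The 4 transcripts correlated positively in all 6 pairs over the 173 animals. These correlations entered the choice of the transcripts, and all pairs share the same arrays, so they are given as descriptions with no p. Because the animals form classes, a correlation over all animals takes in the distances between classes as well as the variation inside them. ENSMUST00000019063 and ENSMUST00000019068 had a Spearman correlation of 0.648 and a Pearson correlation of 0.926. ENSMUST00000107284 and ENSMUST00000092648 had 0.992 and 0.998. Between the 2 sets, ENSMUST00000019063 had a Spearman correlation of 0.596 with ENSMUST00000107284 and of 0.597 with ENSMUST00000092648, and ENSMUST00000019068 had 0.434 with each. The Pearson values of these 4 pairs lay between 0.513 and 0.604.

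The low animals of ENSMUST00000019063 and of ENSMUST00000019068 were the same animals. All 35 below the wide gap of the one were the 35 below the wide gap of the other, and nobody else was. A fit of 3 joint classes to both transcripts placed the classes at 6.91, 8.84 and 9.65 for ENSMUST00000019063 and at 6.61, 10.02 and 10.62 for ENSMUST00000019068, with shares of 20.2%, 56.6% and 23.1%. In this fit of 3 imposed classes the upper means of ENSMUST00000019068 stood 0.60 apart, with an SD inside classes of 0.36. The clear classes of ENSMUST00000019063 largely set the upper shares, which were 56.7% and 23.1% when that transcript was fitted alone. Whether the upper body of ENSMUST00000019068 splits by itself is therefore not shown by this fit. A joint fit that allowed all 9 combinations of classes put 35 animals in the low classes of both, 98.0 in the middle classes of both and 35.6 in the high classes of both, 168.6 of 173 in all, and left 4.37 high in ENSMUST00000019063 and middle in ENSMUST00000019068. In such a fit the clear classes of ENSMUST00000019063 largely place the animals in the overlapping upper classes of ENSMUST00000019068, so only the low class is matched by both transcripts independently. By BIC the 3 joint classes led the 9 combinations by 21.2. The 2 separate fits, with the unresolved upper classes of ENSMUST00000019068, matched only 82.4 animals.

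Within the classes this pair went the other way. The joint fit of 3 classes gave a correlation of -0.314 between the values of ENSMUST00000019063 and ENSMUST00000019068 inside classes, so that animals high for their class in the one tended to be low for it in the other. With a covariance for each class it was -0.108 in the low, -0.331 in the middle and -0.385 in the high class. The negative value turned to 0.814 after the first 5 principal components of all transcripts were removed, a step that also brought the low and middle classes of both transcripts closer together. Their leads over continuous models were then only 16.0 and 39.6. The 0.814 may therefore also hold differences between classes, which was not tested.

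**Figure D4:**
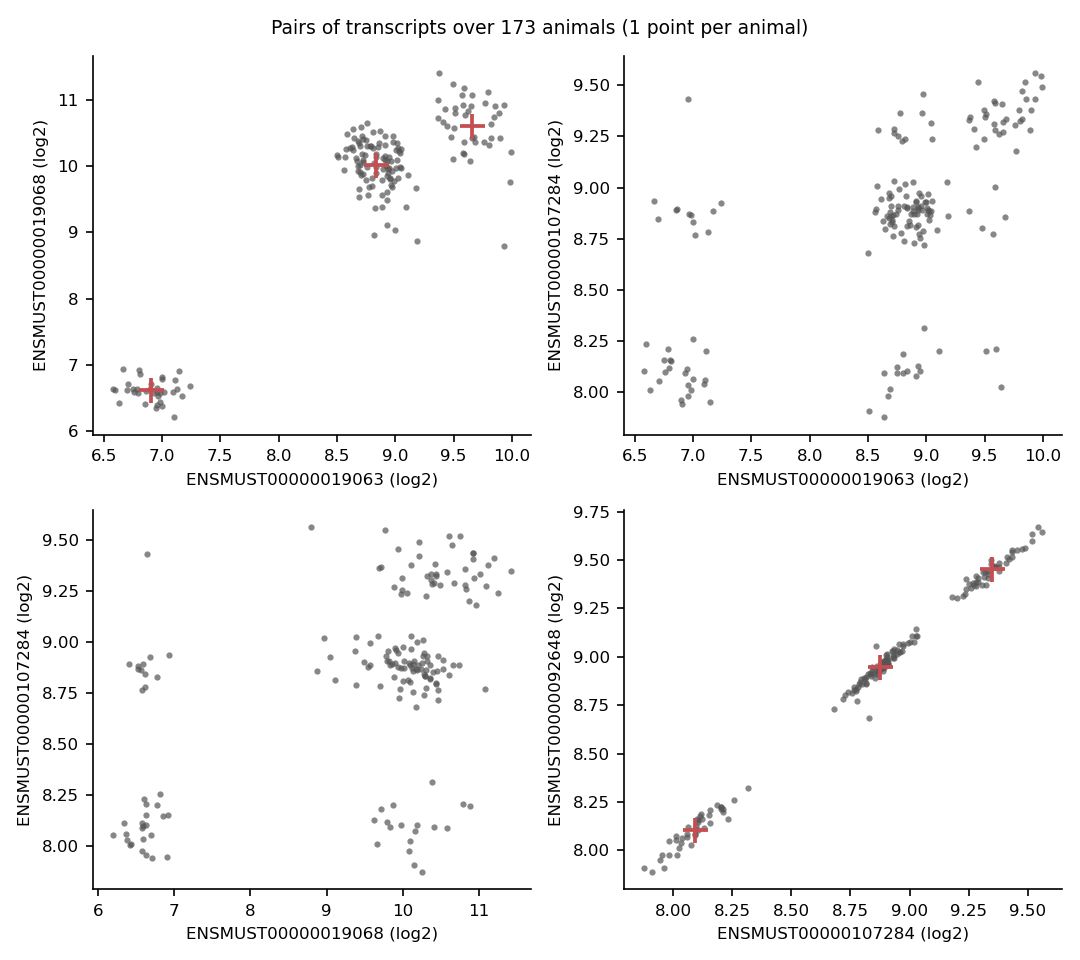
Values of pairs of the transcripts (both axes, log2), 1 point per animal, with red crosses at the means of the 3 joint classes in the upper left and lower right panels. ENSMUST00000019063 and ENSMUST00000019068 share their 35 low animals, the pair at lower right lies along a line, and the panels that join the 2 sets show animals in combinations off the diagonal.

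Between the 2 sets the classes matched in most but not all animals. Both transcripts with clear gaps, ENSMUST00000019063 and ENSMUST00000107284, were used to count this directly from the 2 widest gaps of each. Of the 35 low animals of ENSMUST00000019063, 23 were low, 11 middle and 1 high in ENSMUST00000107284. Of its 98 middle animals, 15 were low, 72 middle and 11 high. Of its 40 high animals, 3 were low, 5 middle and 32 high. In all, 127 of 173 animals (73.4%) were in matching bodies, where the body sizes alone, with no association, would give 68.3 (39.5%). Another 42 differed by 1 step and 4 stood in opposite outer bodies. ENSMUST00000092648 gave the same counts against ENSMUST00000019063. The model of 9 combinations, which led 3 joint classes by a BIC of 218 here, put 127 animals in matching classes.

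For ENSMUST00000019068, whose second gap cuts off only 5 animals, the low animals alone were counted in this way. As these are the same 35 animals, 23 of them (65.7%) were among the 41 low animals of ENSMUST00000107284, of which they make up 56.1%. In the fit of 9 combinations, 125.9 animals were in matching classes of ENSMUST00000019068 and ENSMUST00000107284. In such a fit the clear classes of ENSMUST00000107284 help to place the animals in the overlapping upper classes of ENSMUST00000019068. Only the low class is therefore matched by both transcripts independently. The 127 of ENSMUST00000019063 came from gaps in both transcripts, so 125.9 is not set against it. Separate fits, with the upper classes of ENSMUST00000019068 unresolved, matched only 72.2 animals. The classes of ENSMUST00000019068 stood at 6.61, 10.05 and 10.76 in the fit of 9 combinations. The correlation within classes was -0.220 there, and 0.183 in the fit of 9 combinations of ENSMUST00000019063 and ENSMUST00000107284. The fits of 3 joint classes gave -0.011 and 0.196. Beside ENSMUST00000019068, that fit placed the classes of ENSMUST00000107284 at 8.37, 8.84 and 9.21 with an SD of 0.37. It did not recover the separate bodies of ENSMUST00000107284, so -0.011 and 0.196 also hold differences between them.

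ENSMUST00000107284 and ENSMUST00000092648 put every animal in the same body: 41 low, 88 middle and 44 high in both. Their values also followed each other inside classes, with a correlation of 0.940. ENSMUST00000092648 exceeded ENSMUST00000107284 by 0.07 ± 0.04 on average (SD over 173 animals), with animals between -0.15 and 0.20, and was higher in 158 of 173. Another row, ENSMUST00000107285, held exactly the values of ENSMUST00000107284 on every array (no tolerance) and was counted once. It was singled out after its values were seen. Whether these rows share probes was not tested. As ENSMUST00000107284 and ENSMUST00000092648 hold the same animals in each body, they are not counted here as separate cases of a class pattern.

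The correlation with the other transcripts above the median level was then set out for each of the 4. The median absolute Spearman correlation over 17109 transcripts was 0.094 for ENSMUST00000019063 and 0.063 for ENSMUST00000019068, against 0.100 for ENSMUST00000107284 and 0.101 for ENSMUST00000092648. Absolute correlations above 0.5 were found with 67 transcripts for ENSMUST00000019063 (0.392%) and 38 for ENSMUST00000019068 (0.222%), against 54 for ENSMUST00000107284 (0.316%) and 56 for ENSMUST00000092648 (0.327%). Both signs occurred: 44 of the 67, 23 of the 38, 38 of the 54 and 40 of the 56 were positive. With the 4 chosen transcripts left out, discrete ones made up 9 of 64 and 6 of 37, against 7 of 52 and 7 of 54, where 1.23% of all transcripts were called. The transcripts on these lists share the same arrays.

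The transcripts closest to ENSMUST00000019063 were ENSMUST00000073471 at 0.818, ENSMUST00000021282 at 0.809, ENSMUST00000040428 at -0.793, ENSMUST00000101014 at 0.773 and ENSMUST00000048139 at -0.769. Of these 5, ENSMUST00000021282 alone was called discrete, with classes at 7.95, 8.27 and 8.53, a 1.50-fold difference between the outer ones. It was also among the 5 closest to ENSMUST00000019068, at 0.702. The others closest to ENSMUST00000019068 were ENSMUST00000018887 at 0.773, ENSMUST00000102611 at 0.763, ENSMUST00000092984 at 0.762 and ENSMUST00000108656 at -0.702. ENSMUST00000102611 and ENSMUST00000092984 were discrete, with outer classes 1.48-fold and 1.49-fold apart, ENSMUST00000018887 was not called, and the means of these 3 lay between 8.53 and 8.55. ENSMUST00000108656 was discrete too, with outer classes 1.72-fold apart.

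Closest to ENSMUST00000107284, after ENSMUST00000092648, stood ENSMUST00000100417 at 0.986, with classes at 8.15, 9.00 and 9.50, nearly those of the pair. ENSMUST00000100515 and ENSMUST00000021249 ran the opposite way, at -0.817 and -0.815. Both were discrete, with outer classes 1.97-fold and 2.03-fold apart. ENSMUST00000010502 followed at 0.768 and was not called. The same 4 transcripts followed for ENSMUST00000092648, at 0.981, -0.824, -0.823 and 0.782.

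The overlap of the lists above 0.5 is tied to the correlations among the 4 transcripts and is given as a description of the lists only. With the 4 transcripts themselves left out, ENSMUST00000019063 and ENSMUST00000019068 shared 33 transcripts, 51.6% of the 64 of the first and 89.2% of the 37 of the second. ENSMUST00000107284 and ENSMUST00000092648 shared 51, or 98.1% of 52 and 94.4% of 54. ENSMUST00000019063 and ENSMUST00000107284 shared 21, or 32.8% of 64 and 40.4% of 52. ENSMUST00000019068 and ENSMUST00000107284 shared 8, or 21.6% of 37 and 15.4% of 52.

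**Figure D5:**
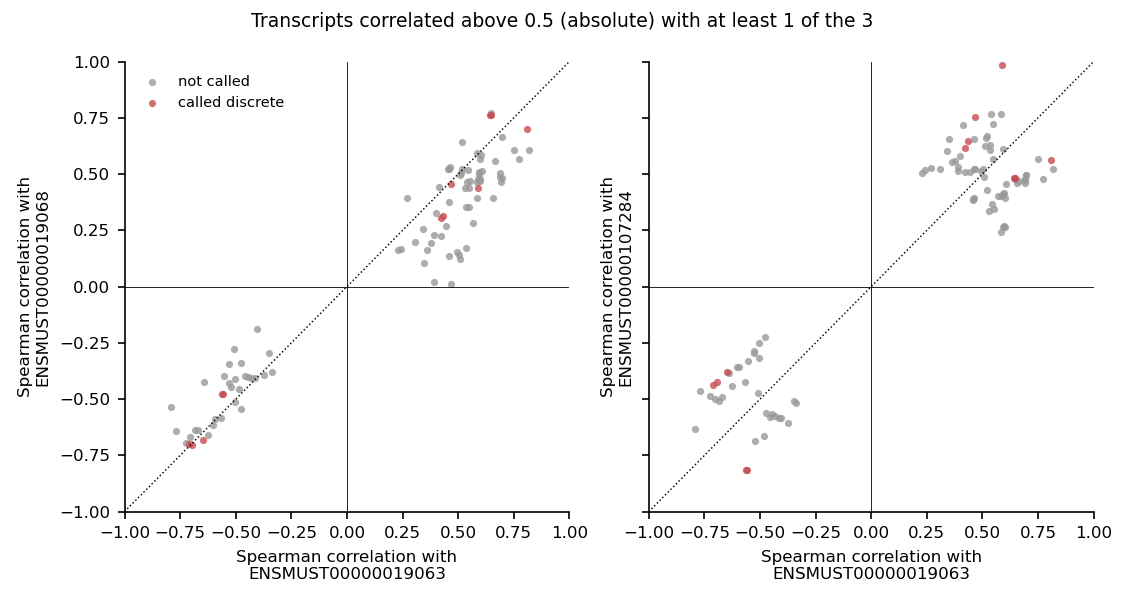
Spearman correlation over 173 animals with ENSMUST00000019063 (x axis) against that with ENSMUST00000019068 (left) or ENSMUST00000107284 (right), for transcripts with an absolute correlation above 0.5 with at least 1 of the 3. Red points were called discrete and the dotted line marks equal values. The points show which transcripts stand closer to ENSMUST00000019063 and which to the other transcript of the panel, such as ENSMUST00000100417 at 0.986 with ENSMUST00000107284.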

How the data were processed

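Kidney RNA of 173 F2 males was hybridised to Affymetrix arrays, 1 per animal. The deposited log2 values were made by the authors with affy and RMA (which corrects background, equalises quantiles and summarises probes), as the tools named per the labels show. For versions, probe sets and genome build, the sources used here give no statement. RMA can compress differences of weak signals, and a strain difference under a probe can change binding without a change in transcript level, which was not examined.

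Of the 37264 rows, 2858 repeated all values of an earlier row. The 17110 distinct ones with a mean above 7.25 were fitted with continuous and class models in Python 3.11.15 (numpy 2.4.6, scipy 1.17.1), tested on simulated data. SEs come from the observed information, and the upper shares of ENSMUST00000019068 have profile likelihood intervals instead. No animal was assigned to a class in a test, and no p-value was computed.

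The transcripts and the settings were chosen with earlier results of these data known. Named transcripts are the 4, and the 5 with the highest absolute Spearman correlation to each. Alternatives were a second quantile normalization, leaving out the 5 arrays that correlated least with the median array, removing 5 principal components, class-specific SDs, fixed or free shares, 2 classes, linear values, Pearson correlation, a BIC difference of 20 and no filter. Joint fits of 9 combinations, and class levels from joint fits, were added after seeing the data.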

Additional observations from a re-analysis of the deposited data

How the results depend on the processing

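Of 244 alternative values, 189 were counted as unchanged. The margins were 1 within-class SD for levels, and 95% intervals for shares, counts of animals, positions and correlations. For the upper shares of ENSMUST00000019068 these were not the profile likelihood intervals. Its middle shares of 37.2% and 25.3% and high shares of 41.5% and 54.4% counted as changed. They lie inside the profile likelihood intervals of 1.99 to 49.9% and 29.9 to 77.8%. The 189 include numbers of discrete transcripts, which none of these margins covers. Levels were compared with the fit with free shares, which put the middle and high classes of ENSMUST00000019068 at 9.28 and 10.26. No paired analysis was possible because all animals form 1 group. The number of discrete transcripts, 211, was 151 with a BIC difference of 20 and 180 to 217 under the other normalizations, and the 4 transcripts were called in each. Their leads fell to 16.0 to 39.6 with 5 principal components removed, and that of ENSMUST00000019063 (16.0) would then miss a BIC difference of 20. Arrays give no depth, and array background was not measured. The cause of the changes below was not tested.

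With arrays quantile-normalized again, ENSMUST00000019068 had middle and high classes at 10.02 and 10.67, with shares of 57.9% and 21.8%. The matching animals were then 143.5 with ENSMUST00000019063, 107.8 with ENSMUST00000107284 and 107.9 with ENSMUST00000092648 (main values 82.4, 72.2 and 72.3), and the Spearman correlation of ENSMUST00000107284 with ENSMUST00000092648 was 0.987. Without the 5 arrays these values were 10.05, 10.71, 60.5%, 18.6%, 141.1, 106.4, 106.4 and 0.995, and the correlation of the last pair within classes was 0.962. The counts of matching animals are there out of the animals left, not out of all animals.

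With 5 principal components removed, low classes stood at 7.28 in ENSMUST00000019063 and 7.13 in ENSMUST00000019068, against 8.26 in ENSMUST00000107284 and 8.29 in ENSMUST00000092648. The high share of ENSMUST00000019063 was 16.9%, and the middle and high shares of ENSMUST00000019068 were 37.2% and 41.5%. Positions were 0.494 in ENSMUST00000019068, against 0.191 in ENSMUST00000107284 and 0.188 in ENSMUST00000092648. The Spearman correlation of ENSMUST00000019063 with ENSMUST00000019068 was 0.927 and that within classes 0.814, where the main value was -0.314. For ENSMUST00000107284 with ENSMUST00000092648 these were 0.996 and 0.984. The 0.814 may also hold differences between classes, as the classes were less distinct in this setting. Matching animals were 118.1 for ENSMUST00000019063 with ENSMUST00000019068, and 112.1 for ENSMUST00000019063 with ENSMUST00000107284 and with ENSMUST00000092648. They were 97.4 and 96.8 for ENSMUST00000019068 with these, and 157.0 for ENSMUST00000107284 with ENSMUST00000092648.

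For ENSMUST00000019068, an SD for each class gave a middle class at 10.16 with 25.3% and a high class with 54.4%, and a position of 0.973. Its high class then stood at 10.21, so these upper classes nearly shared a centre. Its position was 0.461 with free shares and 0.569 on linear values. Its middle class was at 10.00 with shares fixed at 1:2:1, and at 10.02 with 56.6% and a high share of 23.1% when fitted jointly with ENSMUST00000019063. The fit of 9 combinations matched 168.6 animals of ENSMUST00000019063 and ENSMUST00000019068, 125.9 and 126.0 of ENSMUST00000019068 with ENSMUST00000107284 and ENSMUST00000092648, with correlations within classes of -0.220 and -0.188, and 173 of the last pair. Pearson correlations were 0.926 for ENSMUST00000019063 with ENSMUST00000019068 and 0.998 for the last pair.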

Other observations

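In all, 5 animals lay between the low class of ENSMUST00000019068 and the rest of its upper body, from 8.79 to 9.12, where the next animal stood at 9.37. They were mice 59, 31, 113, 13 and 50, and in the same order their ENSMUST00000019063 values were 9.93, 9.19, 8.82, 9.00 and 8.93. In ENSMUST00000107284 they had 9.56, 8.86, 9.02, 8.93 and 8.82. None of them was among the 35 low animals of ENSMUST00000019063, and mouse 59, the lowest of the 5 in ENSMUST00000019068, held the highest value of all 173 animals in ENSMUST00000107284. The arrays of mice 50, 59 and 31 ranked 3, 8 and 10 from the lowest in correlation with the median array, with 0.990, 0.994 and 0.994. The arrays of mice 13 and 113 ranked 50 and 83. The part of array quality in these values was not tested.

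The first 5 principal components of the 17110 transcripts held 21.8% of the variance of ENSMUST00000019063 and 14.7% of that of ENSMUST00000019068, against 24.5% for ENSMUST00000107284 and 24.4% for ENSMUST00000092648. The median over all 17110 was 34.8%. The first component held under 1% in each of the 4, against a median of 8.85%. The second held 10.0% in ENSMUST00000019063 and 0.629% in ENSMUST00000019068, against 14.8% in ENSMUST00000107284 and 14.1% in ENSMUST00000092648, and the median was 2.66%. Along mouse number the lag-1 autocorrelation was -0.037 and -0.006 for ENSMUST00000019063 and ENSMUST00000019068, against -0.104 and -0.097 for ENSMUST00000107284 and ENSMUST00000092648, with a median of 0.035 over all transcripts. The labels give no array batch.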
